A study of Sus scrofa with 2 samples.

Results

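Prostaglandin synthesis and receptor genes were examined in granulosa cells of pig (Sus scrofa) ovarian follicles, which line the follicle around the oocyte and make its steroid hormones, after an siRNA against SMAD4 or a control siRNA. The 10 genes, of 34570 listed, were fixed by name: the cyclooxygenases PTGS1 and PTGS2, the prostaglandin E synthases PTGES, PTGES2 and PTGES3, the prostacyclin synthase PTGIS, the receptors PTGER2, PTGER4 and PTGFR, and HPGD, the dehydrogenase that begins prostaglandin breakdown. The deposited tables list 9 of them under these symbols. PTGER2 was found through its gene ID, as the entry LOC100127164.

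Both groups came from female Chinese Erhualian pigs, and in each the RNA of 3 individuals was pooled into 1 library: the SMAD4-siRNA library and the NC-siRNA library, the control. SMAD4 is the partner that receptor-activated SMADs of the TGF-beta, activin and BMP pathways need to act on genes in the nucleus. The labels do not say whether both pools held the same animals, so the siRNA and the animals cannot be told apart. With 1 library per group there is no replicate check and no test between the conditions. Every difference given is one between these libraries, and in pooled cells fewer cells of a type and less RNA per cell cannot be told apart.

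Prostaglandins are made from arachidonic acid, which phospholipases release from membranes. Cyclooxygenases turn it into an unstable endoperoxide, from which separate terminal synthases make prostaglandin E, prostaglandin F or prostacyclin. These act on G protein-coupled receptors of nearby cells. In the preovulatory follicle the gonadotropin surge is known to induce PTGS2 in granulosa cells, and prostaglandin E is required for cumulus expansion and rupture of the follicle.

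Values are reads per kilobase (RPKM) scaled by each library's upper quartile, so levels of different genes can be compared per length. Whole reads were worked out from the values as the smallest numbers that give them, 17394711 on genes in the SMAD4-siRNA library and 17680952 in the NC-siRNA library. Each ratio is the SMAD4-siRNA value over the NC-siRNA value, and the range in parentheses after it is an exact 95% counting interval from the split of the reads. These intervals hold no spread between animals or transfections. SMAD4, the targeted gene, had a value of 47.9 in the SMAD4-siRNA library and 85.0 in the NC-siRNA library, a ratio of 0.563 (0.497 to 0.639). Of 15 granulosa markers 11 reached a mean value of 1 over both libraries. Among them were FOXL2, NR5A1, GATA4 and INHA, and also FSHR, with only 7 reads in the SMAD4-siRNA library and 9 in the NC-siRNA library. ESR2 had 1 and 0 reads, and CYP19A1, AMH and INHBB were listed at 0 in both libraries. All listed granulosa markers summed to 4638 in the SMAD4-siRNA library and 4414 in the NC-siRNA library, mostly from GJA1, INHBA, GATA4 and FST.

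The prostaglandin genes with reads differed by less than 2-fold between the libraries, as most genes did. Of the 10, 8 had reads in both libraries, with ratios between 0.717 and 1.31. A gene was counted as higher or lower by size at a log2 ratio of (value + 1) of at least 1. By that measure 0 of the 8 were 2-fold higher, where 7.17% of the 16609 genes whose mean value reached 1 were, and 0 were 2-fold lower, against 6.68% of all. Their median log2 ratio was -0.01, beside -0.05 for all those genes. Counting intervals lay wholly above 1 for 2 of the 8, PTGES and PTGFR, where 12.7% of all genes had such an interval. They lay wholly below 1 for 3 of the 8, PTGS1, PTGIS and PTGER2, against 21.5% of all. That makes 5 of 8 intervals that excluded 1, against 34.2% of all. Genes with many reads have narrow intervals, and 7 of the 8 had at least 100 reads. Those 7 hold all 5 intervals and 0 differences of 2-fold. Among all 9664 genes with at least 100 reads 17.6% had an interval wholly above 1, 32.4% had it wholly below and 2.44% differed by 2-fold. The central 50% of these 9664 genes had log2 ratios from -0.26 to 0.14. PTGER2 at -0.48 and PTGFR at 0.38 lay outside that range, and the others of the 7 lay inside it. With both libraries scaled to the same sum, every ratio is multiplied by 1.09: then 4 intervals lay wholly above 1 and 1 wholly below, and for all genes 21.3% lay above and 13.4% below.

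**Figure D1:**
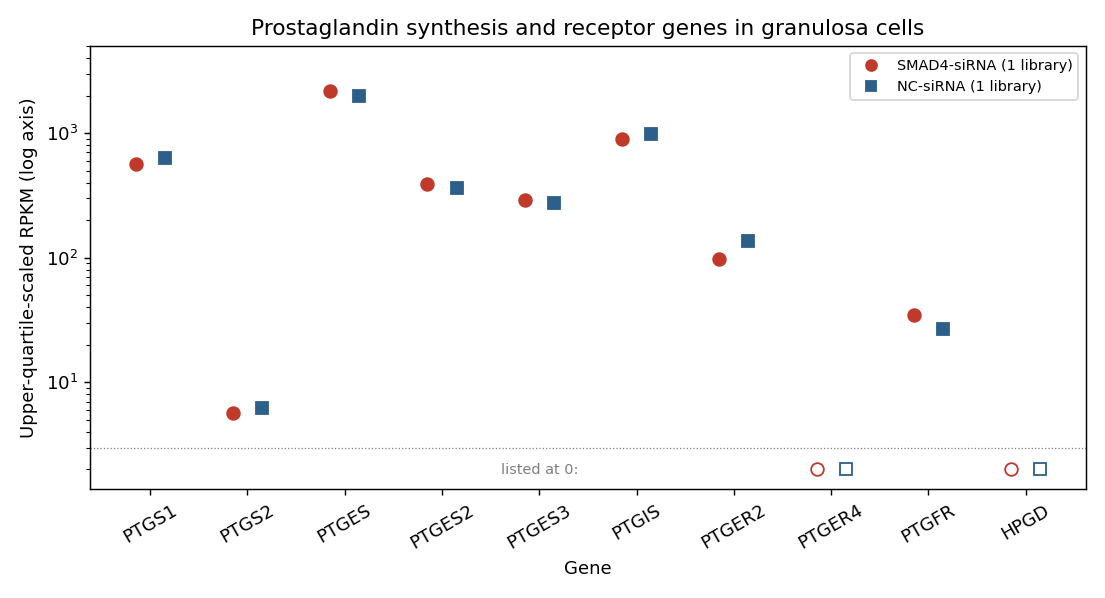
Values of the 10 prostaglandin genes in the SMAD4-siRNA library (circles) and the NC-siRNA library (squares), as upper-quartile-scaled RPKM on a log axis. PTGES is highest in both, PTGS2 is the lowest gene with reads, and PTGER4 and HPGD, drawn open under the dotted line, are listed at 0.

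The order of levels was the same in both libraries. PTGES was highest, followed by PTGIS, PTGS1, PTGES2, PTGES3, PTGER2, PTGFR and PTGS2. Of the 7 pairs of neighbours in this order, 0 had overlapping exact Poisson counting intervals in the SMAD4-siRNA library and 0 in the NC-siRNA library. PTGES alone made up 48.6% of the summed values of the 10 genes in the SMAD4-siRNA library and 44.8% in the NC-siRNA library.

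PTGS1, the cyclooxygenase that most tissues make without a stimulus, had a value of 567 in the SMAD4-siRNA library, from 1466 reads, and 634 in the NC-siRNA library, from 1487 reads. The ratio was 0.895 (0.832 to 0.963). It was slightly lower in the SMAD4-siRNA library, but with both libraries scaled to the same sum the ratio was 0.972 (0.904 to 1.05), so the interval then included 1. PTGS1 stood above 85.3% of the genes detected in the SMAD4-siRNA library and above 85.8% of those in the NC-siRNA library. PTGS1 is also abundant in platelets. Of 8 platelet markers 2 reached a mean value of 1. All those listed, also the ones below it, summed to 37.6 in the SMAD4-siRNA library and 43.8 in the NC-siRNA library. PF4 and PPBP were listed at 0 in both.

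PTGS2, the cyclooxygenase of the ovulatory response, was near the bottom of the measured range. Its value was 5.66 in the SMAD4-siRNA library and 6.23 in the NC-siRNA library, from at least 10 reads in each. The ratio of 0.908 had an interval from 0.339 to 2.43, so at this depth neither a difference of 2-fold nor its absence was detectable. Per length, PTGS1 was 100 times as high as PTGS2 in the SMAD4-siRNA library and 102 times as high in the NC-siRNA library. The tables also hold an entry named COX2, which is an alias of PTGS2 in the reference table. It is listed as a non-coding RNA beside COX1 and COX3, the names of mitochondrial cytochrome oxidase genes, with a value of 30296 in the SMAD4-siRNA library and 32565 in the NC-siRNA library, and was not used. In the reference assembly Sscrofa11.1 the span of PTGS2 overlaps that of PLA2G4A, and no source used here says how the authors assigned reads to overlapping genes or strands.

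The 3 prostaglandin E synthases were all slightly higher in the SMAD4-siRNA library. PTGES, the membrane enzyme that is usually induced together with PTGS2, had a value of 2161 in the SMAD4-siRNA library and 1973 in the NC-siRNA library, a ratio of 1.10 (1.03 to 1.16) on 2490 and 2065 reads. It ranked above 95.4% of detected genes in the SMAD4-siRNA library and 94.7% in the NC-siRNA library. PTGES2, a second membrane-associated synthase, had 388 in the SMAD4-siRNA library and 365 in the NC-siRNA library, and its ratio of 1.06 (0.964 to 1.17) had an interval that included 1. PTGES3, a cytosolic synthase better known as the HSP90 cochaperone p23, had 292 in the SMAD4-siRNA library and 273 in the NC-siRNA library, a ratio of 1.07 (0.951 to 1.20). Scaled to the same sum, PTGES2 had a ratio of 1.15 (1.05 to 1.27) and PTGES3 1.16 (1.03 to 1.30), so both intervals then lay above 1.

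The makeup of this step hardly differed. PTGES held 76.1% of the summed prostaglandin E synthase level in the SMAD4-siRNA library and 75.6% in the NC-siRNA library. PTGES2 held 13.7% and PTGES3 10.3% in the SMAD4-siRNA library, against 14.0% and 10.5% in the NC-siRNA library.

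PTGIS, the cytochrome P450 enzyme that makes prostacyclin, was the second most abundant gene of the set. Its value was 896 in the SMAD4-siRNA library and 987 in the NC-siRNA library, a ratio of 0.907 (0.858 to 0.959) on 2533 and 2535 reads. Scaled to the same sum, the ratio was 0.985 (0.932 to 1.04). PTGIS is typical of endothelial and smooth muscle cells. Endothelial markers, 8 of 11 measured, summed to 810 in the SMAD4-siRNA library and 856 in the NC-siRNA library, with TEK and TIE1 listed at 0 in both. PECAM1, EGFL7 and ERG carried most of that sum. The median log2 ratio was 0.18, with 5 of the 8 on the higher side. KDR, CLDN5 and ESAM, on that side, and VWF, on the lower, had 18, 15, 6 and 13 reads over both libraries. The 4 markers that reached 100 reads centred on -0.008. Counting intervals lay wholly above 1 for 0 of the 8 and wholly below for 2, PECAM1 at 0.875 and ERG at 0.582. Scaled to the same sum, 2 lay above 1 and 1 below. Smooth muscle and pericyte markers, 8 of 10 measured, summed to 36025 in the SMAD4-siRNA library and 45919 in the NC-siRNA library, mostly from ACTG2, with MYH11 listed at 0 in both. Their part in the level of PTGIS was not tested.

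Quotients of genes within a library do not depend on how libraries are scaled. PTGES over PTGIS was 2.41 in the SMAD4-siRNA library and 1.998 in the NC-siRNA library, 1.21 times as high (1.11 to 1.31) with SMAD4-siRNA. PTGES over PTGS1 was 3.81 in the SMAD4-siRNA library and 3.11 in the NC-siRNA library, 1.22 times as high (1.11 to 1.34). In these libraries PTGES, 1 of the 3 prostaglandin E synthases, stood higher relative to PTGS1 and PTGIS with SMAD4-siRNA than with NC-siRNA. These quotients were not planned. As the interval of PTGES lay above 1 and those of PTGS1 and PTGIS below 1, both quotients restate those ratios and are descriptions. PTGIS over PTGS1 was 1.58 in the SMAD4-siRNA library and 1.56 in the NC-siRNA library, a quotient of 1.01 (0.925 to 1.11).

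**Figure D2:**
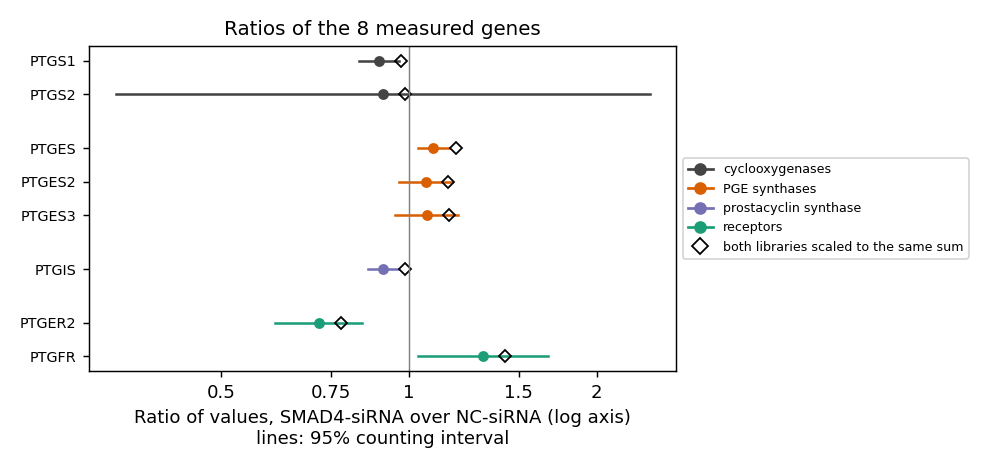
Ratios of the values in the SMAD4-siRNA library over the NC-siRNA library for the 8 prostaglandin genes with reads, on a log axis, with 95% counting intervals as lines; open diamonds give the ratio with both libraries scaled to the same sum. PTGER2 at 0.717 and PTGFR at 1.31 lie farthest from 1 and on opposite sides, and PTGS2 has by far the widest interval.

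The receptors showed the widest ratios among the 8, in opposite directions. PTGER2, a prostaglandin E receptor that raises cAMP and is needed for cumulus expansion in mice, had a value of 98.0 in the SMAD4-siRNA library, from 274 reads, and 137 in the NC-siRNA library, from 347 reads. The ratio was 0.717 (0.610 to 0.843), and 0.778 (0.662 to 0.915) scaled to the same sum. PTGER2 was lower in the SMAD4-siRNA library under both scalings. In the reference assembly its span overlaps that of PTGDR, a prostaglandin D receptor, which had 3 reads in the SMAD4-siRNA library and 6 in the NC-siRNA library.

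PTGFR, the receptor of prostaglandin F that signals through Gq and calcium, had 34.9 in the SMAD4-siRNA library, from 172 reads, and 26.6 in the NC-siRNA library, from 119 reads. It was higher in the SMAD4-siRNA library, with a ratio of 1.31 (1.03 to 1.67), or 1.42 (1.12 to 1.82) scaled to the same sum. Per length, PTGER2 was 2.81 times as high as PTGFR in the SMAD4-siRNA library and 5.14 times as high in the NC-siRNA library, a quotient of 0.546 (0.408 to 0.732). This pair was chosen after the ratios were seen, as those farthest from 1 on either side, so the quotient is a description. PTGER2 was the more abundant of the pair in both libraries.

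PTGER4, the other cAMP-raising prostaglandin E receptor, and HPGD were listed at 0 in both libraries. Genes that nearly every cell uses were listed at 0 as well, 4 of 17 examined (FLNA, HPRT1, POR and SDHA). A listed 0 therefore says nothing about expression of PTGER4 or HPGD, nor of the cell type markers and other genes listed at 0.

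**Figure D3:**
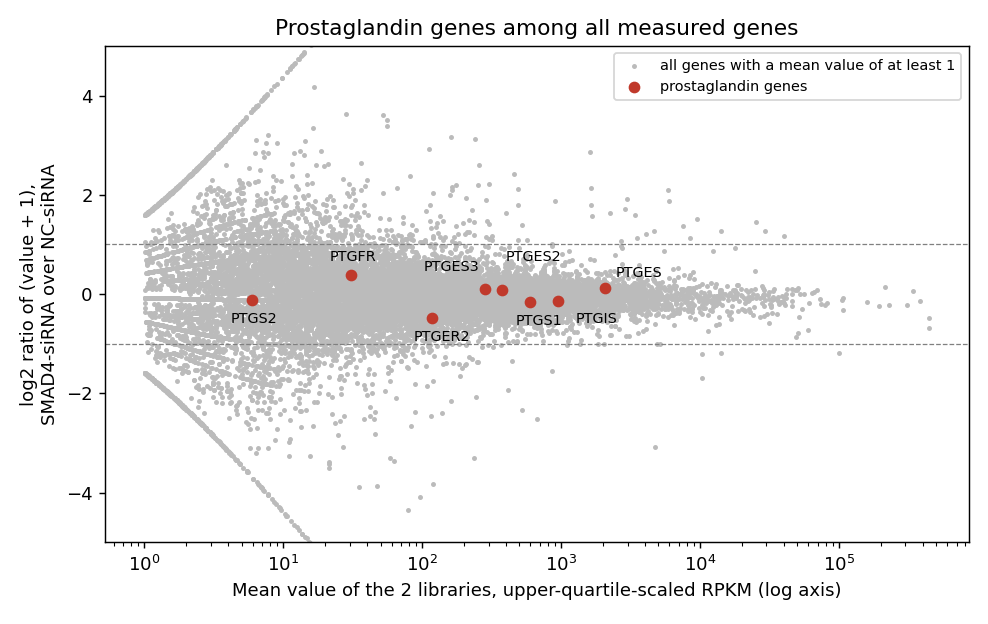
The log2 ratio of (value + 1), SMAD4-siRNA over NC-siRNA, against the mean value on a log axis for the 16609 genes whose mean value reached 1 (grey; 28 genes lie beyond the plotted range) with the 8 prostaglandin genes in red. All 8 lie between the dashed lines that mark 2-fold, from -0.48 for PTGER2 to 0.38 for PTGFR.

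The rest of the prostanoid pathway was described from 47 further genes, of which 38 were listed and 24 reached a mean value of 1. Of the 24, 7 had a log2 ratio above 0 and 17 below, with a median of -0.20, beside -0.05 for all genes. Counting intervals lay wholly above 1 for 1 of them, against 12.7% of all genes, and wholly below 1 for 7, against 21.5% of all. By size, 2 were 2-fold higher, where 7.17% of all genes were, and 2 were 2-fold lower, where 6.68% were. Of these 4, 3 rest on few reads: PTGER3 (7 reads in the SMAD4-siRNA library and 1 in the NC-siRNA library), SLCO2A1 (1 and 0 reads) and PTGER1 (0 and 3 reads) were named after their values were seen. The remaining gene was PTGIR. Scaled to the same sum, 13 of the 24 had a ratio below 1, leaving aside PTGER1, which had 0 reads in the SMAD4-siRNA library. In that scaling 2 intervals lay wholly above 1 and 7 wholly below, beside 21.3% and 13.4% of all genes.

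Upstream of the cyclooxygenases, 7 of 8 measured genes of arachidonate release had a ratio below 1. The median log2 ratio over all genes was itself below 0, at -0.05. Of the 8 intervals 2 excluded 1, against 34.2% of all genes. Scaled to the same sum, 4 of the 8 were below 1, and PLA2G6, PLA2G12A, PLAA and PLA2G4A were above it. PLA2G3, a secreted phospholipase A2, had a value of 649 in the SMAD4-siRNA library and 1070 in the NC-siRNA library, a ratio of 0.607 (0.570 to 0.645) on 1724 and 2581 reads. ABHD6, a lipase of monoacylglycerols, had 377 in the SMAD4-siRNA library and 474 in the NC-siRNA library, a ratio of 0.796 (0.720 to 0.880). In that scaling PLA2G3 was at 0.658 and ABHD6 at 0.864. The other abundant genes of this step had intervals that included 1. PLA2G12A, another secreted phospholipase, was at 0.987 (0.880 to 1.11), the calcium-independent PLA2G6 at 0.928 (0.828 to 1.04), the phospholipase activator PLAA at 1.06 (0.882 to 1.27) and the monoacylglycerol lipase MGLL at 0.790 (0.561 to 1.11). PLA2G4A, the cytosolic enzyme classed as the main supplier of arachidonate for prostaglandins, had only 31 reads in the SMAD4-siRNA library and 30 in the NC-siRNA library, and PTGS2 shares its span. It is named outside the rule on reads, after its values were seen.

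Among the other terminal synthases, AKR1B1 stood out by level. AKR1B1, an aldose reductase known as a prostaglandin F synthase in human and cattle uterus, had 4004 in the SMAD4-siRNA library and 2995 in the NC-siRNA library, a ratio of 1.34 (1.27 to 1.41) on 3794 and 2578 reads. It was thus more abundant per length than PTGES in both libraries. FAM213B, a prostamide and prostaglandin F synthase, was at 0.865 (0.650 to 1.15), and GSTM3, a glutathione transferase listed under a gene ID, at 0.870 (0.644 to 1.17). PTGDS, HPGDS and CBR1 were listed at 0 in both libraries.

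PTGIR, the prostacyclin receptor, had the widest ratio of any prostanoid gene with at least 20 reads. Its value was 15.9 in the SMAD4-siRNA library, from 21 reads, and 42.6 in the NC-siRNA library, from 51 reads, a ratio of 0.374 (0.214 to 0.633), or 0.406 scaled to the same sum. PTGIR is known from platelets and vascular smooth muscle, whose summed marker levels are given above, and their part in its ratio was not tested. PTGFRN, a membrane protein that negatively regulates PTGFR, had 393 in the SMAD4-siRNA library and 530 in the NC-siRNA library, a ratio of 0.741 (0.690 to 0.796). PTGFR and PTGFRN therefore lay on opposite sides of 1, and did so under both scalings, with PTGFRN at 0.804 scaled to the same sum.

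Of 8 measured genes of prostaglandin uptake and breakdown, 4 had a ratio above 1 and 4 below, and 3 intervals lay wholly below 1. All 3 were among the 4 genes with at least 100 reads, where 32.4% of all genes with as many reads have such an interval. SLCO3A1, an organic anion transporter that carries prostaglandins, had a ratio of 0.759 (0.704 to 0.818). PTGR1, a reductase that acts on the oxidized product of HPGD, had 643 in the SMAD4-siRNA library and 842 in the NC-siRNA library, a ratio of 0.764 (0.646 to 0.902). ZADH2, a further reductase of that product, had 2009 in the SMAD4-siRNA library and 2544 in the NC-siRNA library, a ratio of 0.790 (0.744 to 0.838). CBR3, a carbonyl reductase, was at 1.22 (0.972 to 1.53), with an interval that included 1. Scaled to the same sum, SLCO3A1 was at 0.824, PTGR1 at 0.829 and ZADH2 at 0.857, and CBR3 was at 1.32 (1.06 to 1.66), with an interval then wholly above 1.

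**Figure D4:**
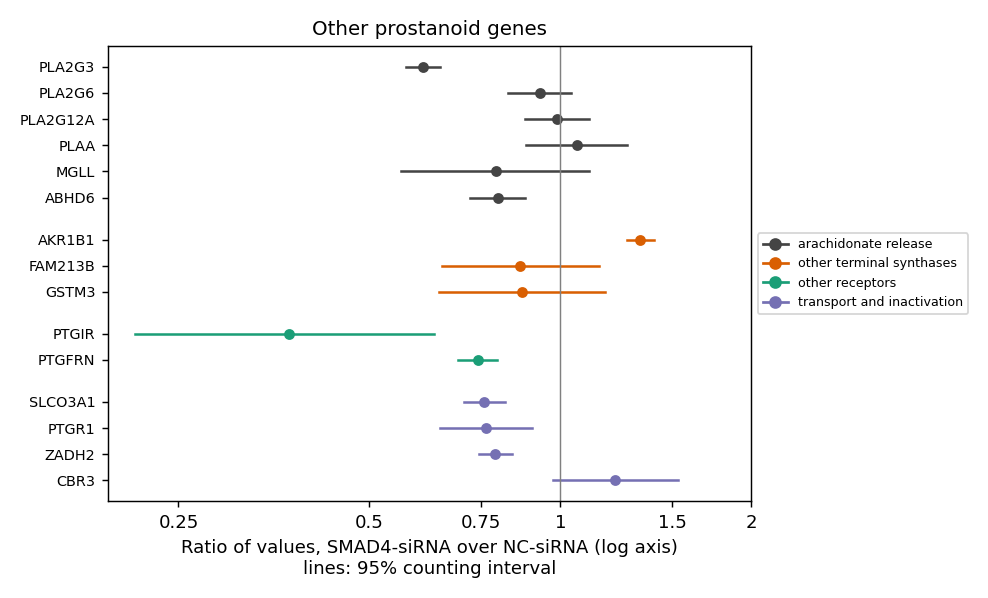
Ratios, SMAD4-siRNA over NC-siRNA, of the other prostanoid genes named by the rule on reads, on a log axis, with 95% counting intervals as lines and colours for the step of the pathway. PTGIR (0.374) and PLA2G3 (0.607) lie lowest and AKR1B1 (1.34) is highest, and SLCO3A1, PTGR1 and ZADH2 lie between 0.759 and 0.790.

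Downstream of the receptors, genes of Gs and cAMP signalling, through which PTGER2 acts, had a median log2 ratio of -0.18 over 24 measured genes, of which 8 had an interval wholly below 1, 3 wholly above and 0 a 2-fold difference. Among all measured genes 21.5% had an interval below 1 and 12.7% above, and among those with at least 100 reads 32.4% and 17.6%. At least 100 reads were reached by 16 of the 24. Scaled to the same sum, 5 intervals of this list lay below 1 and 3 above, beside 13.4% and 21.3% of all genes. GNAS, the Gs alpha subunit, had 18540 in the SMAD4-siRNA library and 23373 in the NC-siRNA library, a ratio of 0.793 (0.780 to 0.806). The catalytic subunit of protein kinase A, PRKACA, was at 0.857 (0.809 to 0.909), its regulatory subunit PRKAR1A at 0.907 (0.868 to 0.947) and the receptor kinase GRK5 at 0.798 (0.733 to 0.868). CRTC2, a coactivator of CREB, was on the higher side at 1.17 (1.05 to 1.29), as was ADRBK1, the receptor kinase also called GRK2, at 1.13 (1.07 to 1.20). ADCY8, an adenylyl cyclase, at 0.938 (0.827 to 1.06), and the arrestin ARRB2, at 0.917 (0.811 to 1.04), had intervals that included 1. Other measured cyclases, outside the 8 genes with most reads, were ADCY6 at 0.744 (0.643 to 0.861), ADCY9 at 0.724 (0.614 to 0.853) and ADCY5 at 0.584 (0.346 to 0.969). Scaled to the same sum, the interval of ADCY5 included 1 (0.376 to 1.05). PRKAR1B, another regulatory subunit, was at 1.75 (1.20 to 2.60). These genes were named after their values were seen. The ratios of GNAS and GRK5 stayed below 0.9 scaled to the same sum, at 0.861 and 0.866, while PRKAR1A was then at 0.984.

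Genes of Gq and calcium signalling, through which PTGFR acts, had a median log2 ratio of -0.18 over 16 measured genes. Of their intervals 7 lay wholly below 1 and 1 wholly above, against 21.5% and 12.7% of all genes. At least 100 reads were reached by 11 of the 16, and among all genes with as many the shares were 32.4% and 17.6%. Scaled to the same sum, 5 lay below 1 and 3 above, beside 13.4% and 21.3% of all genes. The interval of GNA11 then included 1 (0.894 to 1.02) and that of GNA14 lay above it (1.03 to 1.38). The Gq family subunit GNA11 was at 0.881 (0.824 to 0.943), the phospholipase PLCB3 at 0.852 (0.813 to 0.893) and the protein kinase C isoform PRKCD at 0.726 (0.642 to 0.820). ITPR3, a receptor that releases stored calcium, was at 1.20 (1.12 to 1.28). Intervals included 1 for GNA14 at 1.10 (0.946 to 1.27), PLCB4 at 1.01 (0.761 to 1.35), ITPR1 at 0.883 (0.774 to 1.01) and PRKCA at 0.962 (0.783 to 1.18). By size, 2 genes of this list were 2-fold lower, against 6.68% of all genes, and 1 was 2-fold higher, against 7.17%. All were named after their values were seen. RGS2, which shortens Gq signals, had 8.87 in the SMAD4-siRNA library and 20.4 in the NC-siRNA library, a ratio of 0.434 (0.191 to 0.927) on 11 and 23 reads. RGS4, a related regulator, had 2.11 in the SMAD4-siRNA library and 10.5 in the NC-siRNA library, a ratio of 0.202 (0.0681 to 0.499) on 6 and 27 reads. RGS5 had 5 reads in the SMAD4-siRNA library and 1 in the NC-siRNA library.

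**Figure D5:**
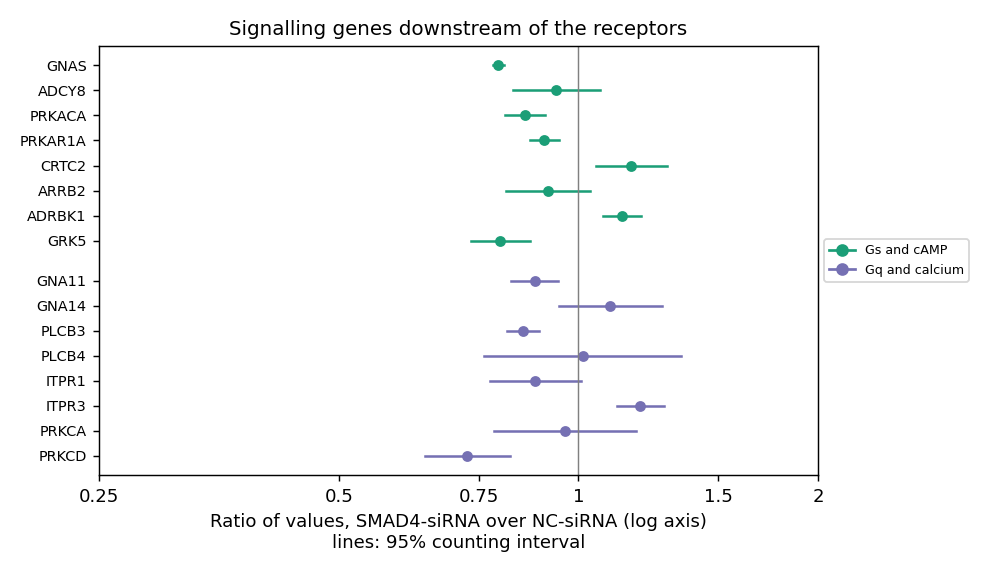
Ratios, SMAD4-siRNA over NC-siRNA, of the 8 genes with most reads of Gs and cAMP signalling and of Gq and calcium signalling, on a log axis, with 95% counting intervals as lines. All 16 ratios lie between 0.726 (PRKCD) and 1.20 (ITPR3), and GNAS, with the most reads, has the narrowest interval.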

How the data were processed

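Total RNA was sequenced from 2 pooled libraries on an Ion Torrent Proton, per the labels. The authors deposited RPKM values that their tables' names call upper-quartile scaled. The aligner, read counter, genome build and annotation are not stated in any source used here. Of 19902 entries without a symbol, 2090 were named by gene ID from RefSeq (Sscrofa11.1, names only). Where a name had several entries, the entry with most reads was used.

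The commonest ratio of the values, 0.908163, shared by 665 genes, gave divisors of 980 (SMAD4-siRNA) and 890 (NC-siRNA). With these, all 18428 genes above 0 gave whole reads at a whole length of up to 40000 bases (relative tolerance 2e-09, absolute 1e-06). For 12 of 12 precursor miRNAs the annotated span was a whole multiple of that length, and equal to it for 8. Reads are the smallest possible. Steps were tested on simulated data.

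Intervals were exact (Clopper-Pearson or Poisson; conditional exact for quotients), in scipy 1.17.1. The log2 scale used a pseudocount of 1, which understates changes of low genes. The genes and lists were chosen with earlier results of these data known. Named beside the 10 genes were, in each list, those with at least 100 reads, or 2-fold with at least 20, up to 8 by reads; others are marked as chosen after their values were seen. Protein and promoter sequences were not used here.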

Additional observations from a re-analysis of the deposited data

How the results depend on the processing

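Over 7 alternatives in pseudocount, filter, centring and scaling, the log2 ratios of the prostaglandin genes gave 54 values, and 54 kept their sign. A pseudocount or a filter cannot change a sign, so only centring and scaling to the same sum could have done so. PTGS2 gave no value with the same sum per library or at least 100 reads, where it missed the minimum. The 3 that left their counting interval were all with both libraries scaled to the same sum: PTGS1 at -0.04, PTGIS at -0.02 and PTGES at 0.25. The count of 0 genes 2-fold higher or lower held under every alternative run, 1.5-fold included. The count of 5 intervals that excluded 1 was 4 at a 99% level (without PTGFR) and 5 under the other alternatives run. With the same sum per library PTGES2 and PTGES3 took the place of PTGS1 and PTGIS. Shares of all genes at 1.5-fold and at the 99% level were not worked out, so counts at these settings have no background beside them. The median log2 ratio of the prostaglandin genes ran from -0.02 to 0.20, that highest value with the same sum and without PTGS2, and that of the other prostanoid genes from -0.27 to -0.11. Of the other prostanoid genes, 2 were 2-fold higher and 2 lower. With a pseudocount of 0.1 these counts were 2 and 3. With a pseudocount of 5, or a mean value of at least 5, they were 0 and 1. With the same sum per library, or at least 100 reads, they were 0 and 0. At 1.5-fold, 3 were higher and 4 lower. SMAD4 was at -0.81, and at -0.58 with the same sum, where every log2 ratio of plain values shifts by 0.12 and the pseudocount weighs more on the smaller values. The minimum of 100 reads, and leaving out PTGER2 as not listed by symbol (median 0.09), were chosen after seeing the data. Without the 2 genes read in 1 library alone, the median of the other prostanoid genes was -0.20. No paired analysis was possible because each group is 1 library. Few reads limit PTGS2 and the genes named with under 100 reads.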

Other observations

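Lipoxygenases and their partners turn the same arachidonic acid into leukotrienes and related lipids. Of 20 such genes, 17 were listed and 10 had a mean value of at least 1, with a median log2 ratio of -0.40. For all genes the median was -0.05. Intervals lay wholly below 1 for 5 of the 10 and wholly above 1 for 1, against 21.5% and 12.7% of all genes. At least 100 reads were reached by 7 of the 10, and among all genes with as many the shares were 32.4% and 17.6%. ALOX5AP, the protein that presents arachidonate to 5-lipoxygenase, had 48.8 in the SMAD4-siRNA library and 89.9 in the NC-siRNA library, a ratio of 0.543 (0.385 to 0.759) on 58 and 97 reads. An entry that the reference table names ALOX12, a lipoxygenase, had 115 in the SMAD4-siRNA library and 185 in the NC-siRNA library, a ratio of 0.621 (0.472 to 0.814); a second entry of that name had values of 1.76 in the SMAD4-siRNA library and 3.49 in the NC-siRNA library. The epoxide hydrolases EPHX1 and EPHX2 were at 0.714 (0.674 to 0.757) and 0.803 (0.737 to 0.875). MGST3, a microsomal glutathione transferase, was on the higher side at 1.16 (1.09 to 1.23). Intervals included 1 for LTA4H, the leukotriene A4 hydrolase, at 0.912 (0.820 to 1.01) and for MGST2 at 0.820 (0.621 to 1.08). LTC4S, the leukotriene C4 synthase, had 3 reads in the SMAD4-siRNA library and 12 in the NC-siRNA library, a ratio of 0.227 (0.0411 to 0.841), and GGT5 had 2 and 7 reads. Both were 2-fold lower, where 6.68% of all genes were, and were named after their values were seen. Leukocytes make many of these proteins. Of 12 leukocyte markers 9 were measured, summing to 1236 in the SMAD4-siRNA library and 1302 in the NC-siRNA library, mostly from CD14 and S100A8. PTPRC, the pan-leukocyte marker, was at 0.61 in the SMAD4-siRNA library and 0.33 in the NC-siRNA library, and CD3E was listed at 0 in both. Their part in these ratios was not tested.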
